A study of Mus musculus with 28 samples.

Results

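The genes followed here encode parts of the contacts between cells, Nectin2, Nectin3, Nectin4, Pkp2, Pkp3, Tjp1, Tjp3, Hmcn2 and Perp, in mouse ovaries after ionizing radiation (IR). They are 9 of the 44674 genes in the bulk table. They were put together because 4 of them, Nectin4, Pkp3, Tjp3 and Hmcn2, were higher in irradiated wild-type ovaries, so the rise of those 4 in that comparison is what chose them and is described here without a test. The other 5 are relatives of the 4 or act at the same contacts. All 9 passed the minimum of 10 counts over the bulk libraries and were also measured in the single-cell libraries.

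The study set wild-type against Chek2-/- ovaries, with and without IR, to ask which transcripts respond to DNA damage through the checkpoint kinase CHEK2. Juvenile females about a week old, of the C57BL/6J background or homozygous for the Chek2 tm1b(EUCOMM)Hmgu deletion in every cell, received 0.5 Gy of whole-body gamma rays (IR) or were left non-irradiated (nonIR), and ovaries were taken at 6 h. Bulk polyA RNA sequencing covered 4 groups of 6 libraries (wild-type nonIR, wild-type IR, Chek2-/- nonIR and Chek2-/- IR), each library from paired ovaries. Single-cell RNA sequencing covered the same 4 conditions with 1 library each, from the pooled ovaries of 4 females, so no single-cell difference between conditions has a replicate check.

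Nectins are immunoglobulin-like adhesion proteins that bind each other across the gap between neighbouring cells and begin adherens junctions. Plakophilins sit on the inner face of desmosomes and tie cadherins to keratin filaments, while the tight junction proteins Tjp1 and Tjp3 (ZO-1 and ZO-3) are scaffolds that hold claudins and occludin to actin. Hmcn2 is a very large extracellular matrix protein, and Perp is a tetraspan membrane protein of desmosomes that is known as a target of p53 and p63. In the ovary such contacts join granulosa cells to each other and to the oocyte they surround.

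The DNA just before the start site is shown for genes that stood higher after IR and for genes that did not. RefSeq start-site windows on GRCm38.p6 were matched for 6 of the 9 genes, Pkp2, Pkp3 and Perp having no entry used here. The windows of 3 genes that were chosen for their rise and of 2 that were not are printed 5′ to 3′ on the strand of the gene, with each letter match in capitals. The motifs searched on both strands were the GC box GGGCGG, the E-box CANNTG, the TATA box TATAAA and the p53 family half-site by its name alone, and no match in the printed windows overlapped another.
Nectin4, chr1:171369923-171370098, plus strand: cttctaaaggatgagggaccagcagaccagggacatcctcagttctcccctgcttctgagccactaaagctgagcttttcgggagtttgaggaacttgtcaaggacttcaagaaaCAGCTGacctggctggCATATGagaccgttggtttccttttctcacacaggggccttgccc
Tjp3, chr10:81291582-81291831, minus strand: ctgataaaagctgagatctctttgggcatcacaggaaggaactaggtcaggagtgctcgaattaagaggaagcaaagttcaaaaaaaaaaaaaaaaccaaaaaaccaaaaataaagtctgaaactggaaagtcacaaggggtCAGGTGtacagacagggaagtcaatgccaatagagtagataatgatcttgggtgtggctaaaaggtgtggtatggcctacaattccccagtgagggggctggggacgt
Hmcn2, chr2:31314082-31314331, plus strand: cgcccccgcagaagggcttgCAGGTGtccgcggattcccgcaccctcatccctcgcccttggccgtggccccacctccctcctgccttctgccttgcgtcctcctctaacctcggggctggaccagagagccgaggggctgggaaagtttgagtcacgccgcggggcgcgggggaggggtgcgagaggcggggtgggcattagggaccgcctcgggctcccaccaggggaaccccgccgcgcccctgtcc
Nectin3, chr16:46496968-46497217, minus strand: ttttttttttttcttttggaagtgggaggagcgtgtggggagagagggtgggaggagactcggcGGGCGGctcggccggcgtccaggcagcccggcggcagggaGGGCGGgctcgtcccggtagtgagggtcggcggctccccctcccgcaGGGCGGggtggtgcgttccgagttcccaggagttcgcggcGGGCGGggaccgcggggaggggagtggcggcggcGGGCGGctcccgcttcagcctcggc
Tjp1, chr7:65371245-65371494, minus strand: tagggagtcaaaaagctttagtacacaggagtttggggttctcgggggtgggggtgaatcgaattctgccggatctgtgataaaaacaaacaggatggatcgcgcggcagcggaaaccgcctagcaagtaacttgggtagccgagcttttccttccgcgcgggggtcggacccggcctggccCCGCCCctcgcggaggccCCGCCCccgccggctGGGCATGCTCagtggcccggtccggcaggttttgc

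The Nectin3 window held 5 GC boxes and 30 CpG dinucleotides, and the Tjp1 window held 2 GC boxes, 22 CpG and 1 half-site that begins 35 bases before the start. No GC box was found in the windows of Nectin4, Tjp3 and Hmcn2, where Nectin4 had 2 E-boxes and 3 CpG, Tjp3 had 1 E-box and 2 CpG, and Hmcn2 had 1 E-box and 22 CpG. RefSeq gives Tjp3 another start, whose window at chr10:81291268-81291517 is not printed and held 2 E-boxes, 7 CpG and no GC box. The window of Nectin2, which was not chosen for a rise and is not printed, held 2 GC boxes, 1 E-box and 16 CpG. Over all 32851 RefSeq windows of 250 bases, 32.7% held a GC box, 66.2% an E-box, 7.13% the half-site and 12.4% a TATA box, with a median of 6 CpG. A match is a run of letters and not a measured binding site. The Nectin4 stretch printed is the 176 bases of its window that lie outside an annotated exon. On GRCm38 the 5 genes span chr1:171370099-171388598, chr10:81273207-81291581, chr2:31314415-31460738, chr16:46387706-46498525 and chr7:65296165-65527781, in the order of the sequences.

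The bulk libraries held 17825167 to 32605747 counts, with 23795 to 25581 genes above 0. Levels are CPM, counts scaled to the same total in every library with library sizes corrected by the trimmed mean of M values, a scale that compares a gene between libraries and not with another gene. Chek2, the check of the genotype labels, was at 18.5 to 24.6 CPM in the 12 wild-type libraries and 2.88 to 4.53 CPM in the 12 Chek2-/- libraries. Summed markers of oocytes ran from 3461 to 4360 CPM in wild-type libraries and from 1914 to 3748 CPM in Chek2-/- ones, with replicate 6 lowest in both Chek2-/- groups, and none of the 10 was at 0 in a group. The 5 markers of primordial-type oocytes summed to 134 to 186 CPM in wild-type nonIR and 101 to 143 CPM in wild-type IR libraries, and to 117 to 231 and 148 to 227 CPM in the Chek2-/- groups. Summed epithelial markers were highest in wild-type IR replicate 4 at 1104 CPM, in Chek2-/- nonIR replicate 6 at 1234 CPM and in Chek2-/- IR replicate 6 at 1052 CPM, against a lowest library of 452 CPM. Summed neutrophil markers reached 1386 CPM in wild-type IR replicate 3 and 1490 CPM in Chek2-/- IR replicate 2. They were at 0.981 to 13.8 CPM in all other irradiated libraries and at most 17.8 CPM in the nonIR libraries. Summed markers of oviduct and uterine epithelium, of which none of 10 was at 0 in a group, were at 12.5 to 26.8 CPM in wild-type nonIR libraries and at 37.3, 35.7, 145, 16.4, 36.3 and 13.1 CPM in wild-type IR ones, 4 of which lay above all nonIR ones. They were at 15.5 to 66.5 CPM in Chek2-/- nonIR and 9.67 to 297 CPM in Chek2-/- IR libraries, and their part in the levels given here was not tested.

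In wild-type ovaries the 4 chosen genes stood 3.54-fold to 14.2-fold higher after IR, from low levels, while the other 5 stayed within 1.28-fold of the nonIR ovaries. In Chek2-/- ovaries none of the 9 passed an adjusted p of at most 0.05 by edgeR and at least 2-fold. Of all genes tested 0.00373% did, so a count of 0 is not particular to these 9. Nectin4, a nectin of skin and other epithelia, was close to the floor of detection in wild-type nonIR ovaries, at 0.0447, 0.237, 0.509, 0.0621, 0.410 and 0.283 CPM, or 1 to 12 counts a library. In wild-type IR ovaries it was at 3.25, 4.06, 2.60, 6.39, 2.60 and 3.07 CPM, or 65 to 114 counts. Every irradiated wild-type library lay above every non-irradiated one, as was so for 1.68% of the genes tested. The log2 fold change was 3.83 with a standard error (SE) of 0.40, a fold of 14.2 with 95% limits of 8.02 and 25.1.

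In Chek2-/- ovaries Nectin4 was on the lower side after IR. It was at 0.369, 0.350, 0.344, 0.628, 0.352 and 0.845 CPM without IR and at 0.318, 0.144, 0.112, 0.182, 0.209 and 0.341 CPM with it, 9 to 22 and 3 to 9 counts. The groups did not overlap, which was so for 0.0597% of the genes tested in this direction. The log2 change of -1.13 (SE 0.42) did not pass edgeR's quasi-likelihood test (adjusted p = 0.896, and 0.777 to 1 over the alternatives).

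Pkp3, the plakophilin found in most desmosomes of simple and layered epithelia, was at 1.12, 0.996, 0.559, 0.714, 0.718 and 0.768 CPM in wild-type nonIR ovaries and at 5.22, 4.54, 4.80, 6.39, 3.63 and 5.07 CPM in wild-type IR ovaries. The lowest irradiated library was above the highest non-irradiated one, and the log2 fold change was 2.60 (SE 0.26). Without Chek2 it was at 1.11, 0.893, 0.574, 0.702, 0.634 and 2.27 CPM in nonIR and 0.990, 0.862, 0.893, 0.618, 0.696 and 0.834 CPM in IR libraries, and these groups overlapped (log2 fold change -0.33, SE 0.26, adjusted p = 1 by edgeR). The value of 2.27 CPM came from replicate 6, the Chek2-/- nonIR library with the highest epithelial markers. Nectin4, at 0.845 CPM, and Tjp3, at 2.84 CPM, were also highest of their group in that library. The part of epithelial cells in these 3 values was not tested.

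Tjp3, the scaffold of epithelial tight junctions, was at 1.03, 1.09, 0.865, 1.02, 1.91 and 1.29 CPM in wild-type nonIR ovaries and at 5.57, 7.64, 4.80, 12.4, 4.87 and 5.43 CPM after IR. The groups were separate, and the log2 fold change was 2.48 (SE 0.25), or 2.22 without replicate 4. That library, at 12.4 CPM, also had the highest epithelial markers of its group. Among the wild-type IR libraries it was also the highest for Nectin4, Pkp3, Hmcn2 and Perp. The same was so for Nectin2, Pkp2 and Tjp1, while Nectin3 was lowest there. The part of epithelial cells in these levels was not tested. The Chek2-/- libraries held Tjp3 at 2.10, 2.18, 1.26, 1.52, 1.83 and 2.84 CPM without IR and 1.63, 1.51, 1.27, 1.09, 1.22 and 0.872 CPM with it. The irradiated Chek2-/- libraries were on the lower side but overlapped the others, and the log2 fold change of -0.63 (SE 0.25) did not pass (adjusted p = 0.999 by edgeR).

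Hmcn2, the matrix protein, was at 3.04, 6.03, 3.0, 3.04, 6.84 and 4.61 CPM in wild-type nonIR ovaries and at 11.1, 14.8, 14.2, 20.2, 16.4 and 17.4 CPM after IR, with no overlap and a log2 fold change of 1.82 (SE 0.19). In Chek2-/- libraries it ran from 3.61 to 5.32 CPM without IR and from 4.46 to 5.60 CPM with it, and the groups overlapped (log2 fold change 0.14, SE 0.18, adjusted p = 1 by edgeR).

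**Figure D1:**
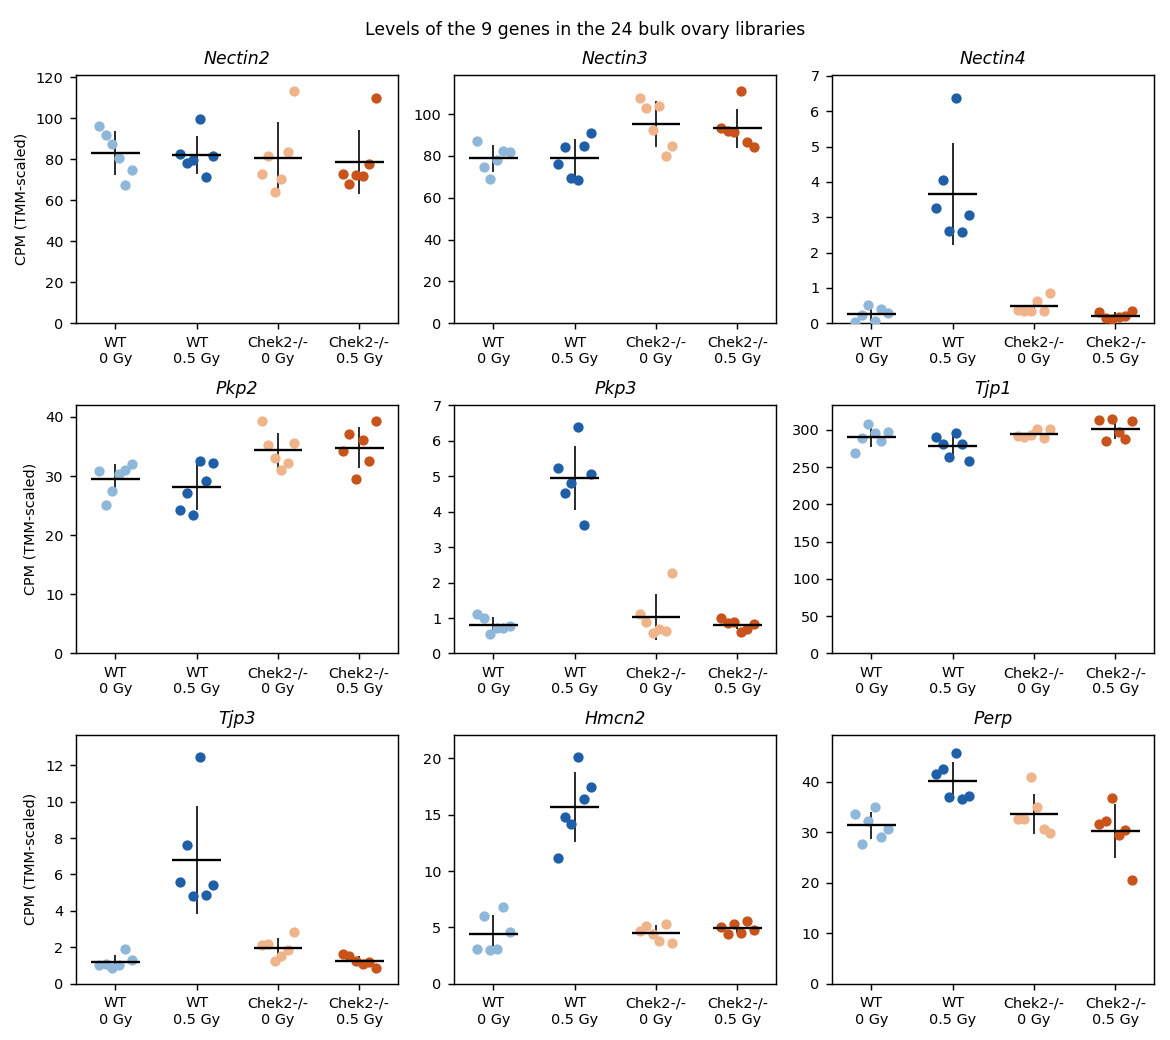
Bulk level of the 9 genes in each of the 24 libraries, in CPM on axes that start at 0, by genotype and irradiation, with each point 1 library, the horizontal bar the mean of 6 and the vertical line the mean ± SD. The wild-type IR points of Nectin4, Pkp3, Tjp3 and Hmcn2 lie above all others of the same gene, and those of Nectin2, Nectin3, Pkp2 and Tjp1 lie among them.

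Among the 5 genes that were not chosen for a rise, Perp was the nearest to the chosen ones. It was at 33.5, 27.7, 32.2, 34.9, 29.1 and 30.6 CPM in wild-type nonIR ovaries and at 41.5, 42.6, 36.9, 45.6, 36.5 and 37.2 CPM after IR. The 2 groups did not overlap, which was so for 1.68% of the genes tested, yet the log2 fold change was only 0.35 (SE 0.10), or 1.28-fold, where Hmcn2, the smallest of the chosen, was at 3.54-fold. Perp in Chek2-/- ovaries ran from 29.7 to 41.0 CPM without IR and from 20.5 to 36.7 CPM with it (log2 fold change -0.16, SE 0.10, adjusted p = 1 by edgeR).

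The other nectins did not follow Nectin4. Nectin2, a widely expressed nectin, was at 83.1 ± 10.8 CPM (SD, n = 6) in wild-type nonIR and 82.0 ± 9.47 CPM in wild-type IR ovaries, and at 80.8 ± 17.4 and 78.7 ± 15.5 CPM in the Chek2-/- groups, where replicate 6 was highest in both at 113 and 110 CPM. Nectin3 was at 78.8 ± 6.36 and 79.0 ± 9.03 CPM (SD, n = 6) in wild-type and 95.3 ± 11.2 and 93.2 ± 9.46 CPM in Chek2-/- ovaries. Neither irradiation effect in Chek2-/- ovaries passed (log2 fold changes -0.04, SE 0.13, and -0.03, SE 0.08, both with adjusted p = 1 by edgeR).

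Pkp2, the plakophilin of heart and of many simple epithelia, was at 29.4 ± 2.60 and 28.2 ± 3.88 CPM (SD, n = 6) in wild-type and at 34.4 ± 2.97 and 34.8 ± 3.48 CPM in Chek2-/- ovaries, without and with IR. Tjp1, the scaffold shared by tight and adherens junctions, was at 291 ± 13.2, 278 ± 14.7, 294 ± 5.34 and 301 ± 13.5 CPM in the same order. In Chek2-/- ovaries their log2 fold changes were 0.02 (SE 0.08) and 0.03 (SE 0.04), both with adjusted p = 1 by edgeR. In wild-type ovaries the log2 fold changes of these relatives were -0.02 for Nectin2, 0.00 for Nectin3, -0.07 for Pkp2 and -0.06 for Tjp1, beside 3.83 for Nectin4, 2.60 for Pkp3 and 2.48 for Tjp3.

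By the threshold of an adjusted p of at most 0.05 and at least 2-fold, 4 of the 9 genes were past it in wild-type ovaries, where 1.08% of the 26790 genes tested were. This count was fixed by the choice of the genes, and no other of the 9, Perp included, was past the adjusted p alone, there or for the difference. In Chek2-/- ovaries 0 of 9 passed by edgeR, against 0.00373% of all genes, and the same count of 0 came from DESeq2 and limma-voom. At an unadjusted p under 0.05 there were 2 of the 9 by edgeR, Nectin4 and Tjp3, both on the lower side, against 4.4% of all genes. The wild-type effect minus the Chek2-/- effect was 4.95 (SE 0.57) for Nectin4, 3.10 (SE 0.35) for Tjp3, 2.93 (SE 0.37) for Pkp3, 1.68 (SE 0.26) for Hmcn2 and 0.51 (SE 0.14) for Perp on the log2 scale, with 4 of 9 past the threshold and 0.623% of all genes. It holds the contrast that chose the genes and is given as a description. Without replicate 6 of Chek2-/- nonIR the difference for Pkp3 was 2.54.

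**Figure D2:**
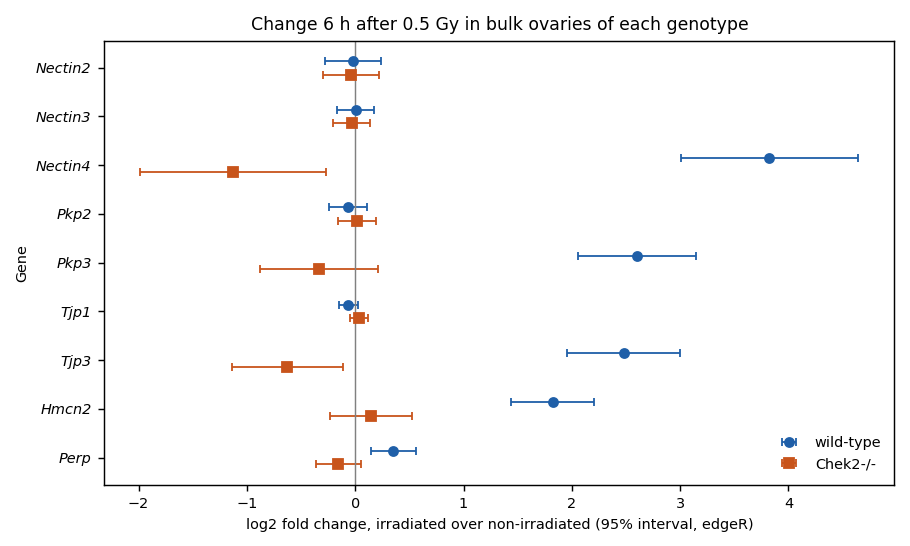
Log2 fold change after irradiation in bulk wild-type and Chek2-/- ovaries for the 9 genes, with 95% limits. The wild-type values of Nectin4, Pkp3, Tjp3 and Hmcn2 run from 3.83 down to 1.82, and the Chek2-/- values of the same genes from -1.13 to 0.14.

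Chek2-/- nonIR and wild-type nonIR ovaries were tested against each other for the 5 genes that were not chosen. Of these 0 passed the threshold by edgeR, DESeq2 or limma-voom, against 0.788% of all genes. At an unadjusted p under 0.05 there were 2, against 21.6% of all genes. Nectin3 came nearest, at 69.0 to 87.0 CPM in wild-type and 80.2 to 108 CPM in Chek2-/- nonIR libraries, overlapping groups that differed by 0.27 on the log2 scale (SE 0.08, adjusted p = 0.0532 by edgeR). Its adjusted p ran from 0.020 to 0.126 over the alternatives. Pkp2 followed with 0.22 (SE 0.08, adjusted p = 0.123 by edgeR), and Perp, Nectin2 and Tjp1 had an adjusted p of 0.62, 0.905 and 0.851. The 4 chosen genes had log2 differences of 0.92 for Nectin4, 0.69 for Tjp3, 0.34 for Pkp3 and 0.02 for Hmcn2, without a test, since this comparison shares the wild-type nonIR libraries with the one that chose them. The value for Pkp3 was -0.05 without replicate 6 of Chek2-/- nonIR. In whole ovaries a difference in the number of cells of a type and one in RNA per cell cannot be told apart. The methods do not say whether wild-type and Chek2-/- females were littermates. A difference of strain or colony therefore cannot be told apart from loss of Chek2 in any comparison of the nonIR genotypes.

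The rest of the junction machinery was read from lists of 133 further genes for nectins and their relatives, cadherins and catenins, desmosomes, tight junctions, gap junctions, basement membrane and the Perp family, of which 125 were tested. In wild-type ovaries 0 of the 125 passed both limits by edgeR, DESeq2 or limma-voom, against 1.08% of all genes by edgeR. By edgeR 22 had an unadjusted p under 0.05, against 11.4% of all genes, and 8 passed the adjusted p alone, against 2.41% of all genes. Of the 8, 5 were higher: Cldn4, a claudin of tight junctions (log2 fold change 0.61, SE 0.08), Vcl, which links adhesions to actin (0.36, SE 0.07), Pard6g, a polarity protein (0.41, SE 0.08), Lama5, a laminin chain of basement membranes (0.58, SE 0.13), and Evpl, the envoplakin of desmosomal plaques (0.94, SE 0.22). The other 3 were lower: Marveld2, a tight junction protein of tricellular contacts (-0.50, SE 0.07), the claudin Cldn8 (-0.97, SE 0.22) and the polarity protein Crb3 (-0.36, SE 0.10). The adjusted p by edgeR ran from 6.56e-06 for Cldn4 to 0.0462 for Crb3. The call for Crb3 was lost in 15 of 19 alternatives (adjusted p up to 0.132) and that for Cldn8 in 1, without wild-type nonIR replicate 6 (adjusted p = 0.0507 by edgeR). Over the 125 genes the log2 fold changes had a median of 0.02, and over all genes one of 0.00.

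By list, the nectin family had 1 of 10 genes past the adjusted p in wild-type ovaries, which was Nectin4 itself, and desmosome genes had 2 of 15, Pkp3 and Evpl. Tight junction genes had 6 of 42 with Tjp3 among them, basement membrane genes 2 of 29, Lama5 and Hmcn2, cadherins and catenins 1 of 13, gap junction genes 0 of 21 and the Perp family 0 of 5. The 4 chosen genes are in these counts by the choice, and 2.41% of all genes passed the adjusted p alone. In Chek2-/- ovaries 0 of the 125 passed by edgeR, DESeq2 or limma-voom even on the adjusted p alone, against 0.0112% of all genes by edgeR, and 11 had an unadjusted p under 0.05, against 4.4% of all genes. The difference between the genotypes was past both limits for 2 of the 125, against 0.623% of all genes. These were the claudins Cldn23 (3.35, SE 0.76, adjusted p = 0.0260 by edgeR) and Cldn10 (3.06, SE 0.75, adjusted p = 0.0428 by edgeR). Cldn4, Marveld2 and Vcl were past the adjusted p alone, which 1.03% of all genes passed. Cldn10 reached 15.3 CPM and Cldn23 2.04 CPM in replicate 6 of Chek2-/- nonIR, the library with the most epithelial markers, where the other 5 libraries of that group were at 1.19 to 2.95 and 0.194 to 0.737 CPM. Over the 24 fits that each left out 1 library, Cldn10 passed in 9 and Cldn23 in 22. Neither passed by limma-voom (adjusted p = 0.104 for Cldn23 and 0.214 for Cldn10) or in edgeR with the replicate number as a block (adjusted p = 0.0539 and 0.0924). The calls for Vcl and Marveld2 were lost in 14 and 3 of 30 alternatives. Without the library named above the difference for Cldn10 no longer passed, and that for Cldn23 was 2.65 (adjusted p = 0.0470 by edgeR). Between the nonIR genotypes 12 of the 125 passed the adjusted p alone, 6 in each direction, against 5.34% of all genes. Vcl was among them (0.26, SE 0.07, adjusted p = 0.0241 by edgeR, lost in 6 of 19 alternatives). The claudin Cldn2 alone of the 125 passed both limits (2.84, SE 0.76, adjusted p = 0.0306 by edgeR), as did 0.788% of all genes. It was at 10.1 CPM in replicate 6 of Chek2-/- nonIR against 0.421 to 1.4 CPM in the other 5, and it did not pass without that library. The call for Cldn2 was lost in 8 of 19 alternatives. By DESeq2 the gene past both limits was Cldn10 (1.41, SE 0.51, adjusted p = 0.0410 by DESeq2) and not Cldn2.

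Over the 24 bulk libraries the genes whose log2 CPM followed the 4 chosen genes most closely by Pearson's r were themselves higher in wild-type IR ovaries. The nearest to Nectin4 were Hes2 (r = 0.927), Tjp3 (0.922) and 5730559C18Rik (0.920). Those to Pkp3 were 2810029C07Rik (0.949), Scn4b (0.944) and Dglucy (0.942), and those to Tjp3 were Dcxr (0.940), Plcxd1 (0.932) and Gramd2 (0.930). Hmcn2 was nearest to Pmaip1 (0.962), Fam83b (0.956) and Bbc3 (0.948), of which Pmaip1 (NOXA) and Bbc3 (PUMA) are BH3-only genes that promote apoptosis. Their log2 fold changes were 2.68 (SE 0.19) and 1.89 (SE 0.12) in wild-type and 0.18 (SE 0.18) and 0.45 (SE 0.12) in Chek2-/- ovaries. The points of such an r share 4 groups, so r follows the group means, and the nearest genes were chosen by it.

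The single-cell libraries placed these changes in cell types. After filters 9277, 9779, 8697 and 8771 cells were used for wild-type nonIR, wild-type IR, Chek2-/- nonIR and Chek2-/- IR, with a median of 15140.5 transcript molecules (UMIs) a cell, and 142 barcodes were found in more than 1 library, in 266 cells. Clusters were named from marker lists, the oocyte-like cluster having 10 of 10 oocyte markers, and 196, 170, 75 and 140 cells were oocyte-like. The median depth of oocyte-like cells was 181498 UMIs in wild-type nonIR but 15869 in wild-type IR, and 159208 and 120518 in the Chek2-/- libraries. Limits given with single-cell values are exact 95% limits and cover counting error only.

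In wild-type IR ovaries most transcripts of the 4 chosen genes were in oocyte-like cells, which held 7.51% of all UMIs of that library. The share of the gene's UMIs found there was 87.5% for Pkp3 (274 of 313), 86.0% for Tjp3 (306 of 356), 85.6% for Nectin4 (285 of 333) and 70.3% for Hmcn2 (805 of 1145). In wild-type nonIR ovaries, where oocyte-like cells held 15.6% of UMIs, the shares were 40.7% of 27, 65.1% of 83, 15.0% of 20 and 30.2% of 169. For Perp the share in oocyte-like cells was 65.5% of 1197 UMIs without IR and 59.3% of 1922 with it in wild-type libraries, and 41.5% of 903 and 40.7% of 1291 in Chek2-/- libraries, where these cells held 7.10% and 9.31% of all UMIs. Nectin2 and Tjp1 were mainly somatic, with 7.77% and 13.6% in oocyte-like cells without IR and 3.22% and 3.96% with it.

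Per UMI, oocyte-like cells of the wild-type IR library held 21.3 CPM of Nectin4 against 0.104 CPM without IR, a ratio of 206 with limits of 69.7 and 1003 that rests on 3 UMIs in the nonIR library. Pkp3 was at 0.380 and 20.5 CPM (ratio 53.9, limits 29.7 and 109), Hmcn2 at 1.76 and 60.2 CPM (34.2, limits 25.7 and 46.3) and Tjp3 at 1.87 and 22.9 CPM (12.3, limits 9.16 and 16.7). In the Chek2-/- libraries the ratios were 0.931 for Pkp3 (limits 0.254 and 3.72), 1.15 for Hmcn2 (0.520 and 2.67) and 0.874 for Tjp3 (0.551 and 1.4), and Nectin4 had 0 UMIs without IR and 1 UMI with it. The same 4 genes were therefore low in oocyte-like cells of all libraries but the wild-type IR one.

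The other 5 genes differed less, and not all in 1 direction. Perp was at 27.1 CPM without IR and 85.2 CPM with it in wild-type oocyte-like cells (ratio 3.14, limits 2.87 and 3.45), where whole ovaries differed by 1.28-fold, and was at 31.6 and 29.5 CPM in the Chek2-/- libraries. Tjp1 was lower, at 66.4 and 36.1 CPM (ratio 0.544, limits 0.492 and 0.602), against 52.9 and 56.7 CPM in Chek2-/- cells. The 9 granulosa markers, all with UMIs, summed to 810 CPM in wild-type nonIR and 293 CPM in wild-type IR oocyte-like cells. They summed to 303 and 475 CPM in the Chek2-/- ones and to 4440 to 5178 CPM in granulosa-like cells. In granulosa-like cells Tjp1 was at 86.9 and 81.1 CPM in the wild-type libraries. The 8 fibroblast markers summed to 247 and 339 CPM in wild-type and to 207 and 228 CPM in Chek2-/- oocyte-like cells. The part of either set of markers in the lower Tjp1 was not tested. Nectin2 (1.11, limits 0.982 and 1.26), Nectin3 (0.927, limits 0.858 and 1.00) and Pkp2 (1.08, limits 0.986 and 1.19) had ratios near 1. All of these ratios kept their direction when shared barcodes were left out, doublets kept, clusters cut more finely or only cells with at least 2000 genes used.

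**Figure D3:**
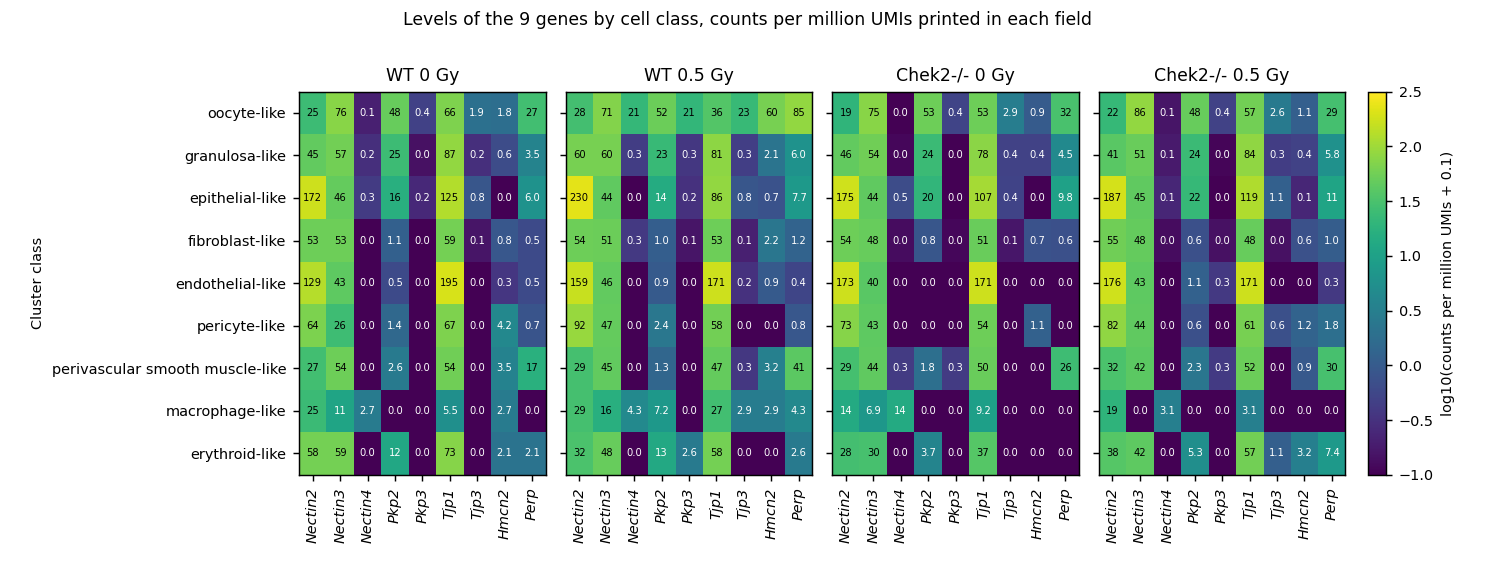
Level of the 9 genes in each named cell class of the wild-type nonIR, wild-type IR, Chek2-/- nonIR and Chek2-/- IR single-cell libraries, with CPM printed in each field and coloured by log10 of CPM plus 0.1. In the wild-type IR library the oocyte-like row holds 20.5 to 60.2 CPM of Nectin4, Pkp3, Tjp3 and Hmcn2, and the granulosa-like row 0.272 to 2.13 CPM.

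In the wild-type IR library the named somatic classes held less of the 4 genes than oocyte-like cells, at most 4.33 CPM of Nectin4, 2.58 of Pkp3, 2.89 of Tjp3 and 3.19 of Hmcn2. In granulosa-like cells, which surround the oocyte, Hmcn2 was at 0.559 CPM without IR and 2.13 CPM with it in wild-type libraries (ratio 3.82, limits 2.69 and 5.54), and Pkp3 had 3 and 21 UMIs. In fibroblast-like cells Hmcn2 was at 0.781 and 2.24 CPM (2.87, limits 2.08 and 4.01), and Nectin4 had 0 and 19 UMIs. In the wild-type IR library fibroblast-like cells held 19 Nectin4 and 149 Hmcn2 UMIs, and oocyte-like cells held 285 and 805. Hmcn2 in the Chek2-/- libraries was at 0.386 and 0.393 CPM in granulosa-like and 0.653 and 0.647 CPM in fibroblast-like cells. Droplets also catch free RNA, and its part in these low levels was not tested.

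Each of the other genes had its own place. Nectin2 was high in epithelial-like cells, at 172 and 230 CPM in wild-type and 175 and 187 CPM in Chek2-/- libraries, and in endothelial-like cells, at 129 to 176 CPM. Tjp1 was highest in endothelial-like cells, at 171 to 195 CPM, and lowest of the named classes in macrophage-like cells, at 3.09 to 27.4 CPM on few UMIs. Nectin3 was at 40.3 to 60.1 CPM in fibroblast-like, granulosa-like and endothelial-like cells, at 70.6 to 85.5 CPM in oocyte-like cells and at 0 to 15.9 CPM in macrophage-like cells. Pkp2 was at 48.2 to 52.6 CPM in oocyte-like, 22.9 to 25.2 CPM in granulosa-like and 14.3 to 21.8 CPM in epithelial-like cells, and at most 2.61 CPM in fibroblast-like, endothelial-like, pericyte-like and perivascular smooth muscle-like cells. Outside oocytes Perp was highest in perivascular smooth muscle-like cells, at 16.6 and 41.3 CPM in wild-type and 25.8 and 30.5 CPM in Chek2-/- libraries. An unnamed cluster of 21 to 48 cells a library, led by S100a8 and S100a9, also held Pkp3 and Tjp3. Pkp3 was there at 26.4 and 35.6 CPM in wild-type and 31.0 and 20.5 CPM in Chek2-/- libraries on 6 to 12 UMIs, against 0.380 and 20.5 CPM in wild-type oocyte-like cells. Tjp3 was at 13.2 and 17.8 CPM in wild-type and 4.42 and 20.5 CPM in Chek2-/- libraries on 1 to 6 UMIs, and Nectin4 had 0 UMIs in all 4.

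Oocyte-like cells were split by Gdf9, an oocyte growth factor that rises as follicles grow, with zona pellucida and Bmp15 transcripts. Gdf9-low subclusters held 121, 87, 49 and 74 cells of the 4 libraries in the order above, Gdf9-high ones 54, 19, 15 and 19, and the rest were shallow. Shallow meant a median under 1 in 3 of the oocyte-like median of 102925 UMIs. The Gdf9-high subcluster of 67 cells was named by its markers first and, at a median of 29216 UMIs, was also under that depth. The wild-type IR cells of the Gdf9-low kind were largely in a subcluster of their own, with 62 of the 87 in a subcluster that held no cell of another library, while the 121 wild-type nonIR cells were in 3 others. That subcluster held 264 of the 285 Nectin4 UMIs. Genes past the threshold in the bulk wild-type comparison, the genes followed here and the junction lists were left out of the clustering. Other genes that differ with IR may remain among those used, so the sizes of subclusters were not compared.

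In Gdf9-low cells of the wild-type libraries Nectin4 was at 0.141 CPM without IR and 27.9 CPM with it (3 and 278 UMIs, ratio 197, limits 66.8 and 963). Pkp3 was at 0.377 and 25.7 CPM (ratio 68.2, limits 34.1 and 160), Hmcn2 at 1.65 and 73.0 CPM (44.3, limits 31.6 and 64.1), Tjp3 at 2.31 and 29.4 CPM (12.7, limits 9.39 and 17.6) and Perp at 30.3 and 106 CPM (3.51, limits 3.18 and 3.88). In the Chek2-/- libraries none of the 4 chosen genes was above 4.12 CPM in these cells, and Perp was at 33.4 and 34.8 CPM. Tjp1 was at 74.1 and 36.8 CPM in wild-type (ratio 0.497, limits 0.442 and 0.557) and 61.4 and 65.4 CPM in Chek2-/- cells. Nectin3 was at 68.2 and 49.3 CPM in wild-type (0.722, limits 0.650 and 0.80) and 69.6 and 72.3 CPM in Chek2-/- cells. Summed granulosa markers in the same wild-type cells were at 950 CPM without IR and 332 CPM with it. Of the Gdf9-low subclusters, 1 held more than 1 cell of both wild-type libraries, with 44 and 24 cells. Granulosa markers were there at 1442 and 1548 CPM and fibroblast markers at 202 and 897 CPM. Tjp1 was at 90.9 and 88.0 CPM and Nectin3 at 70.4 and 46.9 CPM. Its 24 wild-type IR cells lay outside the subcluster that held most wild-type IR cells of this kind, so they cannot stand for those. The part of either set of markers in these levels was not tested.

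In Gdf9-high cells of the wild-type libraries the levels of the 4 chosen genes with IR were lower than in Gdf9-low cells, and the ratios of Pkp3 and Tjp3 rested on few UMIs. Nectin4 had 0 and 2 UMIs, without and with IR. Pkp3 was at 0.164 and 2.34 CPM (1 and 7 UMIs, ratio 14.3, limits 1.84 and 644), Tjp3 at 0.491 and 2.01 CPM (3 and 6 UMIs, ratio 4.08, limits 0.872 and 25.2) and Hmcn2 at 2.13 and 19.4 CPM (13 and 58 UMIs, ratio 9.11, limits 4.93 and 18.1). Perp was at 15.4 and 16.7 CPM (1.09, limits 0.755 and 1.55). Nectin3 was higher with IR in both genotypes, with ratios of 1.33 (limits 1.18 and 1.51) and 1.35 (1.18 and 1.54), and Pkp2 lower in both, at 0.672 (0.516 and 0.867) and 0.733 (0.592 and 0.908). These cells came from 2 subclusters in unequal parts, with 37 and 17 cells of wild-type nonIR, 17 and 2 of wild-type IR, 4 and 11 of Chek2-/- nonIR and 9 and 10 of Chek2-/- IR. Within the first, Nectin3 was at 153 and 163 CPM in wild-type and 106 and 172 CPM in Chek2-/- libraries, and within the second at 73.5 and 66.6 CPM and at 79.8 and 74.3 CPM, so the direction was not the same in both. Only 19 Gdf9-high cells of each IR library and 15 of Chek2-/- nonIR were measured. The limits of the wild-type ratio in Gdf9-low cells lay above those in Gdf9-high cells for Hmcn2 and Perp and overlapped them for Pkp3 and Tjp3. These limits cover counting error in 1 library per condition, so whether the response differs between the 2 kinds of cells cannot be told from them.

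**Figure D4:**
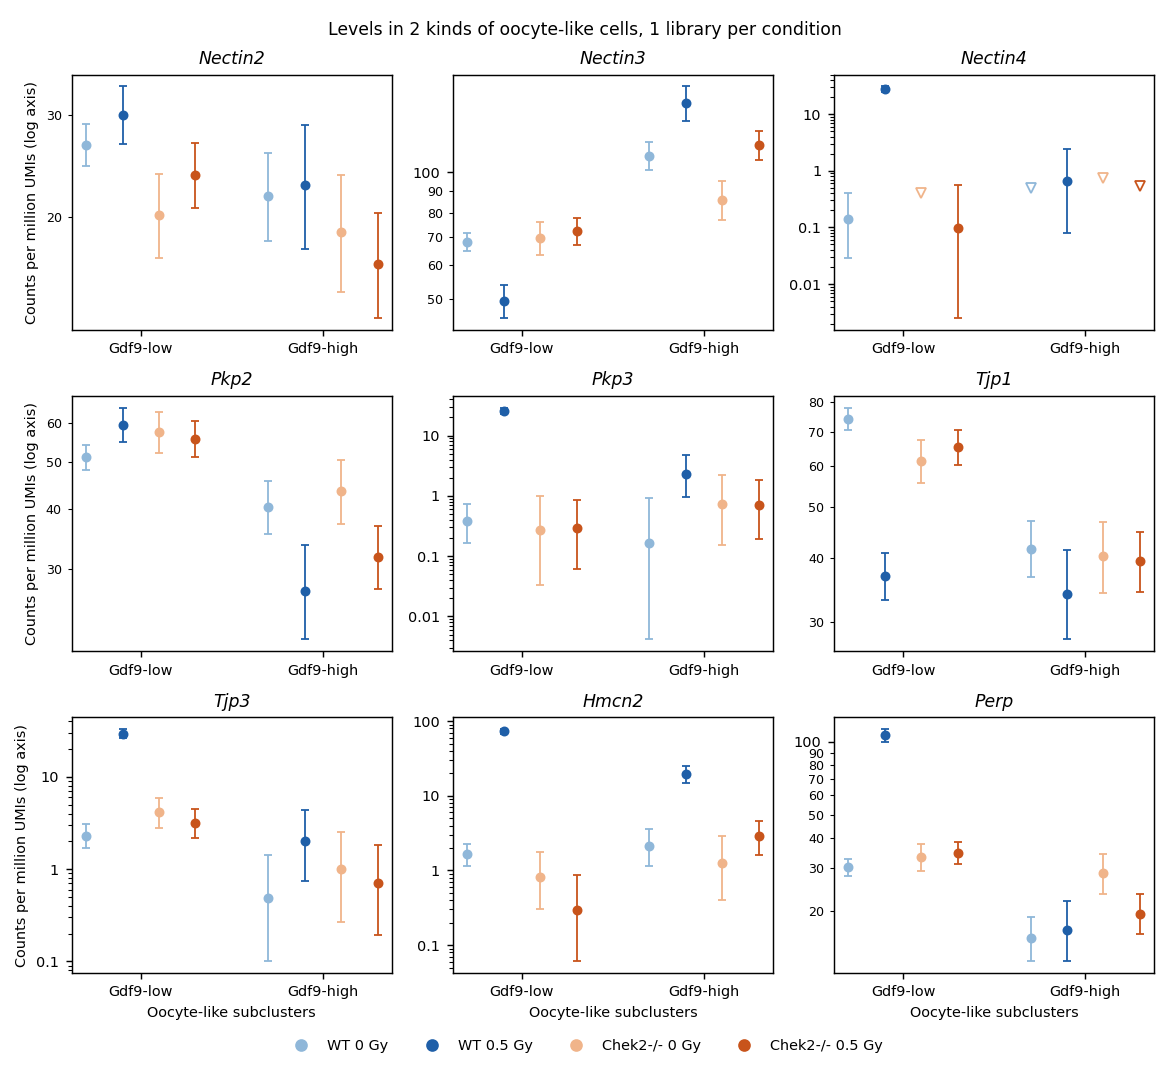
Level of the 9 genes in Gdf9-low and Gdf9-high oocyte-like cells of the 4 single-cell libraries, in CPM on a log axis with exact 95% limits. Open triangles stand for 0 UMIs and are drawn at the level of 3 UMIs. In Gdf9-low cells the wild-type IR point of Nectin4 is at 27.9 CPM against 0.141 CPM without IR, and that of Tjp1 at 36.8 against 74.1 CPM.

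Counted per cell, Nectin4 was seen in 46 of 87 Gdf9-low cells of wild-type IR (52.9%) and 2 of 121 of wild-type nonIR (1.65%), although the median depth of the first was 48523 and of the second 193061 UMIs. Hmcn2 was seen in 70.1% and 6.61%, Pkp3 in 62.1% and 6.61% and Tjp3 in 57.5% and 32.2% of these cells. In fibroblast-like cells of wild-type IR, Nectin4 was seen in 0.392% at a median depth of 11868.5 UMIs. With each cell thinned to 3000 UMIs, which left out 13 of the 87 cells and none of the 121, Nectin4 was seen in 6.76% and 0%, Hmcn2 in 20.3% and 0.826%, Pkp3 in 10.8% and 0%, and Tjp3 in 8.11% and 0.826%, and the 0 of 121 cells allows up to 3.0% of cells with a UMI at that thinned depth by the exact limit, which does not limit the share of cells that express the gene. Without thinning, all 4 genes were seen in 36 of 87 wild-type IR cells (41.4%) and none of the 4 in 19 (21.8%). Joint detection was not counted at a like depth, so joint expression and depth per cell cannot be told apart here. All 4 were found in 1 of 121 wild-type nonIR cells, 0 of 49 Chek2-/- nonIR cells and 0 of 74 Chek2-/- IR cells.

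Of the 141 junction genes measured in single cells, 87 had at least 100 UMIs over the wild-type oocyte-like cells. The irradiated to non-irradiated ratio had limits wholly above 1 for 31, wholly below 1 for 33 and on both sides of 1 for 23, and the median ratio was 0.972. The shares over all genes in these cells were not taken, so the counts cannot be read as particular to junction genes. Of the 87, 8 reached the minimum only through the irradiated library, the 4 chosen genes with Evpl, Cdh4, Fbln2 and Ppl, and the 5 largest ratios were all among them, so that order and the count of 31 are descriptions that support no rise. Beside Nectin4, Pkp3, Hmcn2 and Tjp3 the fifth was Evpl, at 37.7 (limits 21.1 and 74.1, 12 and 209 UMIs), with 0.931 in Chek2-/- cells (limits 0.254 and 3.72). Of the genes past the adjusted p in bulk ovaries, Lama5 was at 10.0 (limits 8.44 and 12.0), Pard6g at 4.02 (3.71 and 4.37) and Cldn4 at 3.94 (3.52 and 4.4), Vcl at 1.34 (1.21 and 1.48), Crb3 at 0.938 (0.854 and 1.03) and Marveld2 at 0.558 (0.491 and 0.632), while Cldn8, with 66 UMIs, was under the minimum. Lama5 was also higher with IR in Chek2-/- oocyte-like cells, at 3.01 (limits 2.14 and 4.31), where Pard6g and Cldn4 were at 1.03 and 1.09.

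The 5 smallest ratios were those of Dsg2, a desmosomal cadherin (0.317, limits 0.179 and 0.530), Cdh2, the N-cadherin of oocyte and granulosa contacts (0.341, limits 0.277 and 0.417), Jam2, a junctional adhesion molecule (0.376, limits 0.313 and 0.449), and the basement membrane genes Col4a5 (0.471, limits 0.363 and 0.604) and Nid1 (0.485, limits 0.426 and 0.549). In Chek2-/- cells Cdh2 and Jam2 went the other way, at 1.45 (limits 1.16 and 1.82) and 1.88 (limits 1.52 and 2.34). Dsg2 was at 1.29 there, Nid1 at 1.32 and Col4a5 at 0.701. In wild-type oocyte-like cells granulosa markers were lower with IR and fibroblast markers higher, and in Chek2-/- ones both were higher, as given above. All 5 genes were higher in granulosa-like than in oocyte-like cells of the wild-type libraries. The part of either set of markers in these ratios was not tested. In the subcluster with 44 and 24 wild-type cells, granulosa markers were alike but fibroblast markers were at 202 CPM without IR and 897 CPM with it. Cdh2 was there at 45.7 and 53.6 CPM, Jam2 at 50.8 and 41.1 and Nid1 at 81.2 and 120 CPM. Col4a5 was at 23.9 and 36.9 and Dsg2 at 6.14 and 8.38 CPM, so Jam2 alone of the 5 was lower with IR there. The part of the fibroblast markers in these levels was not tested.

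**Figure D5:**
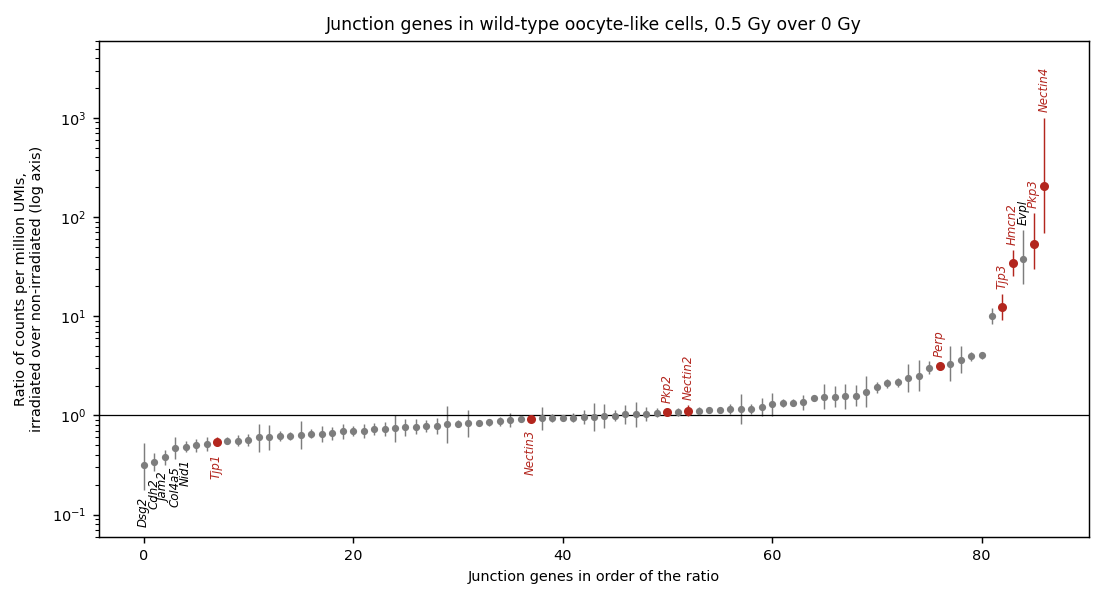
Irradiated to non-irradiated ratio of the 87 junction genes with at least 100 UMIs in oocyte-like cells of the wild-type libraries, ordered by size on a log axis, with exact 95% limits and the genes described here in red. Nectin4 is at 206, Pkp3 at 53.9 and Evpl at 37.7, and Dsg2 is lowest at 0.317.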

How the data were processed

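Bulk polyA libraries of paired ovaries and 4 single-cell libraries (10x Chromium, pooled ovaries of 4 females each) were analysed. The authors made the bulk table with FastQC 0.11.9, Trim Galore 0.6.5 and Salmon 1.3.0, and deposited expected counts per gene (estimated counts, not normalized), which were rounded here. The labels name mm10 and the methods a later annotation, so no coordinates were taken from the table. The single-cell matrices hold UMI counts per gene and cell as deposited by the authors (Cell Ranger, mm10). No strand setting was given in the sources used here, so an antisense overlap cannot be told apart. Polyadenylated RNA alone was captured, and Salmon shares reads between similar transcripts by estimate.

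Genes with at least 10 counts over the 24 libraries were fitted with edgeR 4.0.16 (quasi-likelihood, TMM, 1 model of 4 groups, p adjusted by Benjamini-Hochberg over 26790 genes), with 17825167 to 32605747 counts a library setting the precision. Past the threshold meant an adjusted p of at most 0.05 and at least 2-fold. P-values weigh a difference between groups against the spread between libraries. DESeq2 1.42.0, limma 3.58.1 (voom), other scaling and filters, a replicate block and leaving out each library were the alternatives. Replicate numbers were not taken to pair the samples (36 correlations of deviations, -0.19 to 0.66, 16 over 0.1), although 5 of the 6 between the Chek2-/- groups were over 0.1 (0.06 to 0.66). The fit was tested on simulated data.

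Cells with at least 1000 genes, at most 20% mitochondrial and 50% ribosomal UMIs and no doublet call were clustered with scanpy 1.11.5 (Leiden, resolution 0.5). A cluster took a name where at least 60% of a marker list, and 3 markers, were in 25% of its cells at 2-fold over the median cluster, limits set with the clusters in view. UMI sums per class gave the levels. With 1 library per condition no test was made, and limits cover counting error only, since PCR copies are collapsed by UMI but cells of a library are not replicates.

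The genes, the lists and the rule for named genes were chosen with earlier results of these data known. Named were the 9 genes, Chek2, junction genes past the threshold in the wild-type, Chek2-/- or difference comparison, the 3 genes most alike to each chosen gene over the 24 libraries, and, in oocyte-like cells, the junction genes with the 5 highest and 5 lowest ratios. Genes past the adjusted p alone, and those between the nonIR genotypes, were named after their values were seen.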

Additional observations from a re-analysis of the deposited data

Results flagged for a closer look

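In groups of 6 libraries a value was marked when its gap to the nearest other, as a part of the whole range, was above Dixon's 95% critical value, which chance gives in about 1 of 20 groups, and 40 groups were examined. Nectin2 was at 110 CPM in replicate 6 of Chek2-/- IR (gap 0.770 of the range), and Nectin3 at 111 CPM in replicate 4 of the same group (0.671). Pkp3 was at 2.27 CPM in replicate 6 of Chek2-/- nonIR (0.686), and Tjp3 at 12.4 CPM in replicate 4 of wild-type IR (0.629). Summed epithelial markers were the highest of their group in 3 of these 4 libraries, at 1052, 1234 and 1104 CPM in Chek2-/- IR replicate 6, Chek2-/- nonIR replicate 6 and wild-type IR replicate 4, and their part in these values was not tested.

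The effect of irradiation passed edgeR's test of a difference between the genotypes for Cldn23, with a log2 difference of 3.35 (adjusted p = 0.0260 by edgeR), and for Cldn10, with 3.06 (adjusted p = 0.0428 by edgeR). Neither passed by limma-voom (adjusted p = 0.104 and 0.214) or with the replicate block (adjusted p = 0.0539 and 0.0924 by edgeR), and Cldn10 passed in 9 and Cldn23 in 22 of 24 fits that left out 1 library. Cldn23 was at 0.240 to 1.53 CPM in wild-type IR and 0.0621 to 0.364 CPM in wild-type nonIR libraries, which overlap, and had 0 UMIs in oocyte-like cells of all 4 single-cell libraries.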

How the results depend on the processing

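The count of the 9 genes past the threshold was 4 in wild-type ovaries, 0 in Chek2-/- ovaries, 4 for the difference and 0 between the nonIR genotypes under every alternative run, and leaving out each library in turn gave 4 to 4, 0 to 0, 4 to 4 and 0 to 0. The counts of 4 follow from the choice of the genes and are no support for their rise. Among the other junction genes 0 were past the threshold in wild-type ovaries, 8 with no minimum fold, and 0 to 1 when a library was left out. That gene was Cldn8 without wild-type IR replicate 2, wild-type IR replicate 6 or wild-type nonIR replicate 2 (log2 fold change -1.03, -1.04 and -1.06) and Evpl without wild-type IR replicate 5 (1.00), and in Chek2-/- ovaries the range was 0 to 0. For the difference, 2 were past it, 5 with no minimum fold, 0 by limma-voom, 3 by DESeq2 (Cldn7 added, log2 difference 2.57, adjusted p = 0.0497), and 0 to 3 when a library was left out (Marveld3 added without Chek2-/- nonIR replicate 3), with 0 without wild-type IR replicate 1 or Chek2-/- IR replicate 5. Between the nonIR genotypes, a comparison added after seeing the data, 1 was past the threshold, Cldn2, and 12 with no minimum fold. By DESeq2 the gene past it was Cldn10 and not Cldn2. The count was 0 by limma-voom or with only the groups of the contrast, and 0 to 1 when a library was left out. It was 0 without wild-type nonIR replicates 1 to 4 or Chek2-/- nonIR replicate 6. The cause was not tested. With the replicate number as a block, the difference had 0 junction genes past the threshold, the numbers were not taken as pairs (16 of 36 correlations over 0.1, 5 of 6 between the Chek2-/- groups), and the block changed no count of the 9 genes. A fit with only the groups of the contrast was not run for the difference, which needs all 4. All 36 single-cell alternatives kept their direction. Levels near 3 counts, which is 0.0931 to 0.168 CPM in bulk libraries, limit the folds of Nectin4.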
